A study of Mus musculus with 18 samples.

Results

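Transcripts of 8 interferon-inducible GTPases were followed in RNA sequencing libraries of mouse embryonic fibroblasts (MEF), 3 guanylate-binding proteins (Gbp2, Gbp3 and Gbp7) and 5 immunity-related GTPases (Irgm1, Irgm2, Igtp, Iigp1 and Ifi47). They were taken by name from the 55450 genes of the table, and all 8 were among the 21161 genes that passed the filter on low counts. The 18 libraries fall into 6 groups of 3: cells transfected with empty pcDNA3, with Col1a1-miR-29b or with CMV-miR-29b, each without TGF-β or with 20 ng/ml TGF-β for 24 h from 6 h after transfection. TGF-β is the cytokine that drives collagen production in fibroblasts, and miR-29b is a microRNA that lowers collagen transcripts. Both miR-29b plasmids carry a human miR-29b-1 sequence downstream of EGFP, behind a rat Col1a1 promoter that answers to TGF-β or behind the constitutive CMV promoter, and an mRFP1 marker behind an SV40 promoter. The empty vector lacks the fluorescent proteins, and the plasmids were given at equal molar amounts, so that the longer Col1a1-miR-29b plasmid went in at a larger DNA mass than CMV-miR-29b. Within these groups an effect of miR-29b cannot be told apart from an effect of the other plasmid sequence or of the mass of DNA when a miR-29b vector is compared with the empty vector. All cells, including those with the empty vector, were transfected with Lipofectamine 3000, and untransfected cells were not analysed here.

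Interferon-inducible GTPases are large GTP-binding proteins of cell-autonomous defence. Interferons bind their receptors, the kinases Jak1, Jak2 and Tyk2 activate transcription factors such as Stat2, and these, with Irf9 and later Irf1, bind interferon-stimulated response elements (ISRE) and gamma-activated sites (GAS) in the promoters of their targets. Guanylate-binding proteins assemble on the vacuoles of intracellular pathogens and on cytosolic bacteria and help to open them. Among immunity-related GTPases, Irgm1, Irgm2 and Igtp (also called Irgm3) are regulators that sit on the cell's own membranes and hold the effector GTPases, among them Iigp1 (Irga6) and Ifi47 (Irgd), in their inactive state.

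The promoter stretches are shown because they hold the letters of the elements just named, and because 2 of them are nearly the same sequence. In the RefSeq promoter table (GRCm38.p6), which holds 250 bases before and 50 after each transcript start, 7 of the 8 genes had an entry, Iigp1 being the other. The ISRE letters TTTCNNTTTC, searched on both strands (GAAANNGAAA on the opposite strand), were found upstream of 6 of the 7 genes, Gbp2, Gbp3, Gbp7, Irgm1, Irgm2 and Igtp, while 3.99% of all 27025 genes with an entry held them in the window. The stretches around them, read in the direction of transcription with the ISRE letters in capitals, are these, Gbp2 at chr3:142620564-142620653, Gbp3 at chr3:142559959-142560043, Gbp7 at chr3:142530243-142530332, Irgm1 at chr11:48871421-48871490 (minus strand), Irgm2 at chr11:58214873-58214962 and Igtp at chr11:58199482-58199555:
Gbp2: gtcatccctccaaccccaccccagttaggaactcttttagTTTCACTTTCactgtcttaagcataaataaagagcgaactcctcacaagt
Gbp3: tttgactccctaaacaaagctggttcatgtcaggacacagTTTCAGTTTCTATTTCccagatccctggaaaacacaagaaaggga
Gbp7: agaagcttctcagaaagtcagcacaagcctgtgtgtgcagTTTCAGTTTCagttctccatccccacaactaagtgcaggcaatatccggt
Irgm1: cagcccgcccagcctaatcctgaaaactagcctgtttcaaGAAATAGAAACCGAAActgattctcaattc
Irgm2: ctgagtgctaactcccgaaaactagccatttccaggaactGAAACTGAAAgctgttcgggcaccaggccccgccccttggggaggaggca
Igtp: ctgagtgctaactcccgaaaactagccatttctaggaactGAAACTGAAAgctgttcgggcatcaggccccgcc

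The 3 guanylate-binding protein genes carried the motif on the strand of the gene, and Irgm1, Irgm2 and Igtp carried it on the opposite strand. In Gbp3 and Irgm1, 2 matches overlapped. Gbp3 had 2 windows in the table, for 2 transcript starts, and the other held neither set of letters. The stretches of Igtp and Irgm2 were identical at 72 of 74 bases compared, although their RefSeq starts lie far apart on the chromosome. The annotated span of Irgm2 given below begins elsewhere, near the start of Igtp. The first base of the match lay 34 bases before the start of Igtp and 64 before that of Irgm2. The GAS letters TTCNNNGAA, which read the same on both strands, were found in Gbp7, Irgm2 and Igtp, against 9.55% of all genes with an entry, and overlapped no ISRE match. Ifi47 held neither set of letters in this window, which says nothing of other positions.

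**Figure D1:**
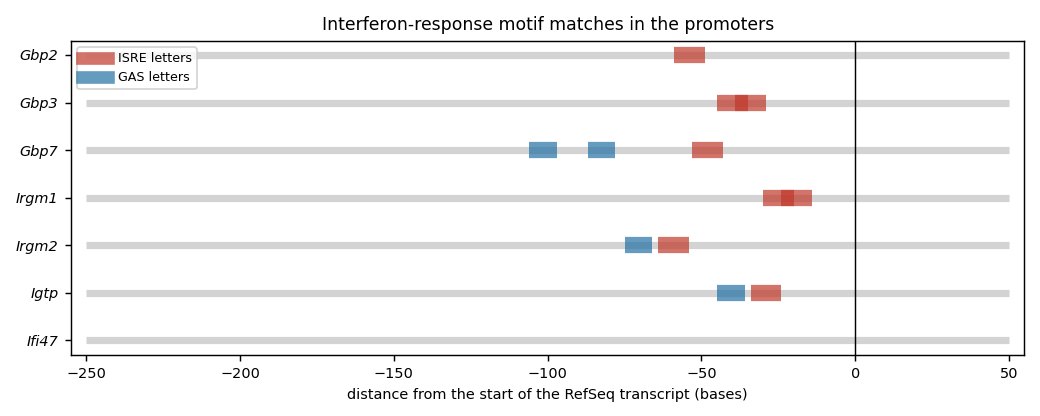
Matches to the ISRE letters (red) and the GAS letters (blue) in 1 promoter window of each of the 7 genes, by distance in bases from the RefSeq transcript start (vertical line). All matches lie upstream of the start, the nearest in Irgm1 and the farthest in Gbp7, and Ifi47 has none.

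The mature miR-29b-3p of the mouse (RefSeq, GRCm38.p6), with its seed at bases 2 to 8 in capitals, is given because its seed sets which transcripts it can pair with.
miR-29b-3p: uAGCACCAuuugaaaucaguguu

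The complement of this seed, TGGTGCT, occurred in none of the annotated 3′ UTRs of the 8 genes (GENCODE M21), of which the longest was that of Gbp7 with 3575 bases. Over all 21039 genes with an annotated 3′ UTR, 13.8% held it. This describes the letters only, and other kinds of pairing were not searched.

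The 3 guanylate-binding protein genes lie together on chromosome 3 on the plus strand of GRCm38, Gbp7 (ENSMUSG00000040253) at chr3:142530342-142550149, Gbp3 (ENSMUSG00000028268) at chr3:142560026-142573209 and Gbp2 (ENSMUSG00000028270) at chr3:142620602-142638008. Igtp (ENSMUSG00000078853, chr11:58199556-58207591) and Irgm2 (ENSMUSG00000069874, chr11:58199618-58222782) overlap on the same strand of chromosome 11. The annotated span of Irgm2 begins within that of Igtp, and 162 of the 2022 exonic bases of Igtp are shared, so reads from those bases could be given to either gene. Irgm1 (ENSMUSG00000046879, chr11:48861968-48871683, minus strand) and Ifi47 (ENSMUSG00000078920, chr11:49076587-49096974) lie on the same chromosome, and Iigp1 (ENSMUSG00000054072) lies on chromosome 18. Ifi47 lies wholly within the span of Olfr56, with which it shares 111 of its 2473 exonic bases, and Olfr56 had 4 to 128 counts per library. Reads that fit several members of these related families could have been divided between them during counting, and how the authors did this is not stated.

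All 8 genes were detected in every library. On the FPKM scale of the authors, which corrects for transcript length, the median over 16 libraries was 51.2 for Igtp, 30.1 for Irgm1, 29.6 for Irgm2, 26.8 for Gbp3, 18.9 for Gbp2, 8.0 for Gbp7, 5.42 for Ifi47 and 1.47 for Iigp1. The 3 regulators were therefore above both effectors in level per length. By its median, Igtp exceeded 95.7% of the genes tested and Iigp1 44.9%. The lowest count of any member in any library was 414, for Iigp1, in libraries with totals of 65898017 to 80332633 counts.

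The 10 fibroblast markers include the collagen genes Col1a1, Col1a2 and Col3a1 and the matrix gene Fn1. Of these markers, Thy1 had at most 8 counts in any library. Of the markers of other cells, Adgre1 reached 4 counts, Cd3e 2, Nkg7 5 and Epcam 4, whereas Krt14, of the epithelial list, had 17 to 197 and Cdh5, of the endothelial list, 25 to 152. The summed normalized count of the fibroblast markers was 311973 to 343550 in empty vector cells and 242476 to 270364 in Col1a1-miR-29b cells, both without TGF-β. Against the empty vector, 2 of the markers were called lower with Col1a1-miR-29b, or 6 where TGF-β was present. Over all genes tested, 6.27% and 12.9% passed in these comparisons, in either direction. The 10 macrophage and leukocyte markers summed to 1697 to 1882 and 1889 to 2001 in empty vector and Col1a1-miR-29b cells without TGF-β. Cd68 alone had 613 to 1004 counts per library. The 5 endothelial markers summed to 91.2 to 140 in empty vector and 124 to 155 in Col1a1-miR-29b cells, and the 6 epithelial markers to 59.6 to 89.7 and 104. No leukocyte, endothelial or epithelial marker was called in any comparison of vectors. In these, 0.00473% to 12.9% of all genes tested passed, so nothing is read from the absence of calls. The part of these shifts in the results below was not tested. In bulk samples such as these, fewer cells of a type and less RNA per cell cannot be told apart. The fibroblast sum holds transcripts of collagen, which miR-29b is known to lower, so it does not measure the share of fibroblasts. Here an effect of miR-29b on this sum cannot be told apart from one of the other plasmid sequence or of the DNA mass. In each Col1a1-miR-29b arm 1 column of the table has the letter f, which no other group has, while the remaining title of the arm has e. These columns could be tied to the group but not to a sample. The number of the 8 GTPases called in each comparison of 2 groups that uses these 2 libraries f is therefore also given without them. Results for the markers, the other gene lists, the interaction, the overlap and order of groups and the correlations are given with them only.

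The first comparison asked whether the GTPases differed between Col1a1-miR-29b and empty vector cells in the absence of TGF-β. They were higher in Col1a1-miR-29b cells, with 7 of 8 passing an adjusted p of 0.05 and none lower, where 6.27% of all genes tested passed and 2.57% passed as higher. The median log2 fold change came to 0.49 over the 8 genes and 0.02 over all genes tested. All values per library below are normalized counts, which are counts scaled to a common library size by edgeR's TMM factors, and adjusted p-values are from edgeR's quasi-likelihood test with Benjamini-Hochberg adjustment over all 21161 genes.

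Among the regulators, Igtp had 8355, 7996 and 8655 in empty vector cells and 14960, 15573 and 13595 in Col1a1-miR-29b cells. Irgm2 had 8315, 9082 and 9022 in empty vector cells and 16230, 15310 and 15352 in Col1a1-miR-29b cells. In both genes the groups stood far apart, with the lowest Col1a1-miR-29b library well above the highest empty vector library. The log2 fold change was 0.82 ± 0.074 (SE, n = 3 against 3, adjusted p = 0.000117, edgeR) for Igtp and 0.83 ± 0.085 (adjusted p = 0.000195, edgeR) for Irgm2, or 1.76-fold and 1.77-fold. Irgm1, the regulator that is best known for its part in resistance to mycobacteria, had 13273, 11804 and 12481 in empty vector cells and 18773, 15779 and 16318 in Col1a1-miR-29b cells. Its groups did not overlap either, and its change was smaller, 0.44 ± 0.094 (adjusted p = 0.0151, edgeR). The call for Irgm1 was lost without empty vector library d (log2 fold change 0.39, adjusted p = 0.0715), without Col1a1-miR-29b library c (0.35, adjusted p = 0.0629) and without the 2 libraries f (0.46, adjusted p = 0.053, edgeR).

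Of the effectors, Iigp1 had the largest fold change of the 8 genes and the lowest counts. It had 733, 738 and 569 in empty vector cells and 1614, 1203 and 1537 in Col1a1-miR-29b cells, and each Col1a1-miR-29b library exceeded each empty vector library. The log2 fold change was 1.09 ± 0.19 (adjusted p = 0.00544, edgeR), or 2.13-fold. Ifi47 had 1010, 942 and 1013 against 1190, 1282 and 1248, with no overlap between the groups, but its log2 fold change of 0.33 ± 0.10 did not pass (adjusted p = 0.0738, edgeR). Non-overlap is common here, since 14.9% of all genes tested had every Col1a1-miR-29b library above every empty vector library.

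All 3 guanylate-binding proteins rose, by 0.47 to 0.50 on the log2 scale. Gbp2, which coats the vacuole of Toxoplasma, had 3877, 4215 and 4164 in empty vector cells and 5463, 5944 and 5512 in Col1a1-miR-29b cells. Gbp3 had 7307, 7268 and 7478 in empty vector cells and 10533, 9400 and 10710 in Col1a1-miR-29b cells. Gbp7, which takes part in autophagic and oxidative killing of bacteria, had 3550, 3913 and 3728 in empty vector cells and 5422, 4922 and 5515 in Col1a1-miR-29b cells. No group overlapped in any of the 3 genes, and the log2 fold changes were 0.47 ± 0.061 for Gbp2 (adjusted p = 0.0014), 0.47 ± 0.071 for Gbp3 (adjusted p = 0.00275) and 0.50 ± 0.087 for Gbp7 (adjusted p = 0.00533, edgeR). Without the 2 libraries f, 6 of the 8 genes passed.

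**Figure D2:**
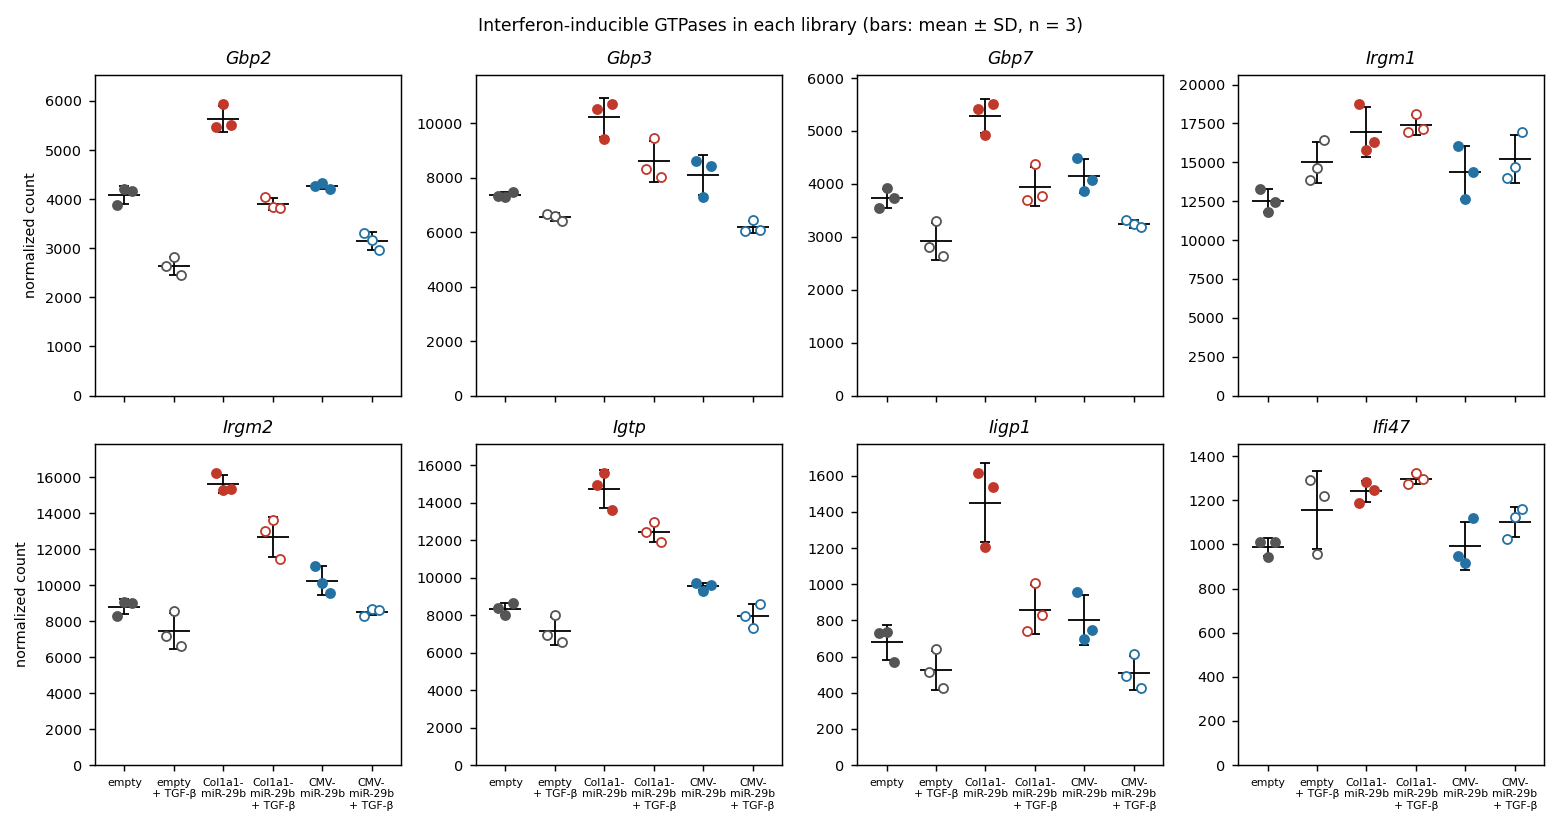
Normalized count of each GTPase in each library, by vector and TGF-β; filled points are without TGF-β and open points with it, and the horizontal bar and whiskers give the mean ± SD (n = 3). In Irgm2 and Igtp all 6 Col1a1-miR-29b libraries lie above all other libraries, while in Irgm1 and Ifi47 the groups run into each other.

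With TGF-β present in both arms, 6 of the 8 genes were higher in Col1a1-miR-29b than in empty vector cells, where 12.9% of all genes tested passed and 5.31% passed as higher. Igtp had 6920, 8005 and 6546 in empty vector cells with TGF-β and 12439, 12978 and 11924 in Col1a1-miR-29b cells with TGF-β. Irgm2 had 7170, 8539 and 6618 against 13025, 13613 and 11436. These regulators again stood apart without overlap, by a log2 fold change of 0.80 ± 0.074 for Igtp (adjusted p = 0.000147, edgeR) and 0.77 ± 0.085 for Irgm2 (adjusted p = 0.000202, edgeR). Gbp2 had 2648, 2821 and 2450 against 4037, 3840 and 3821. Its log2 fold change of 0.56 ± 0.061 (adjusted p = 0.000202, edgeR) was the largest of the guanylate-binding proteins, since Gbp3 gave 0.39 ± 0.071 and Gbp7 0.44 ± 0.087, both of which passed (adjusted p = 0.00263 and 0.0044, edgeR). Gbp3 had 8308, 9443 and 8023 and Gbp7 3701, 4373 and 3770 in Col1a1-miR-29b cells with TGF-β, above all empty vector libraries with TGF-β.

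Iigp1 had 512, 639 and 425 in empty vector cells with TGF-β and 741, 1006 and 830 in Col1a1-miR-29b cells with TGF-β. The groups did not overlap and the log2 fold change was 0.71 ± 0.19 (adjusted p = 0.0226, edgeR). This call rested on few libraries. It was lost without empty vector library c or e with TGF-β (adjusted p = 0.0789 and 0.115), without Col1a1-miR-29b library d with TGF-β (0.096), and without library f with TGF-β (0.0531) or both libraries f (0.0644, edgeR). Irgm1, with 13881, 14655 and 16444 against 16922, 18129 and 17176, gave 0.22 ± 0.094 and did not pass (adjusted p = 0.159, edgeR). Ifi47, with 1292, 955 and 1221 against 1274, 1323 and 1299, overlapped between the groups and did not pass either (0.17 ± 0.10, adjusted p = 0.342, edgeR). Over the 8 genes the median log2 fold change was 0.50, against 0.02 over all genes tested, and 5 of 8 passed without the 2 libraries f. All but Ifi47 had every Col1a1-miR-29b library above every empty vector library, against 14.8% of all genes tested.

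**Figure D3:**
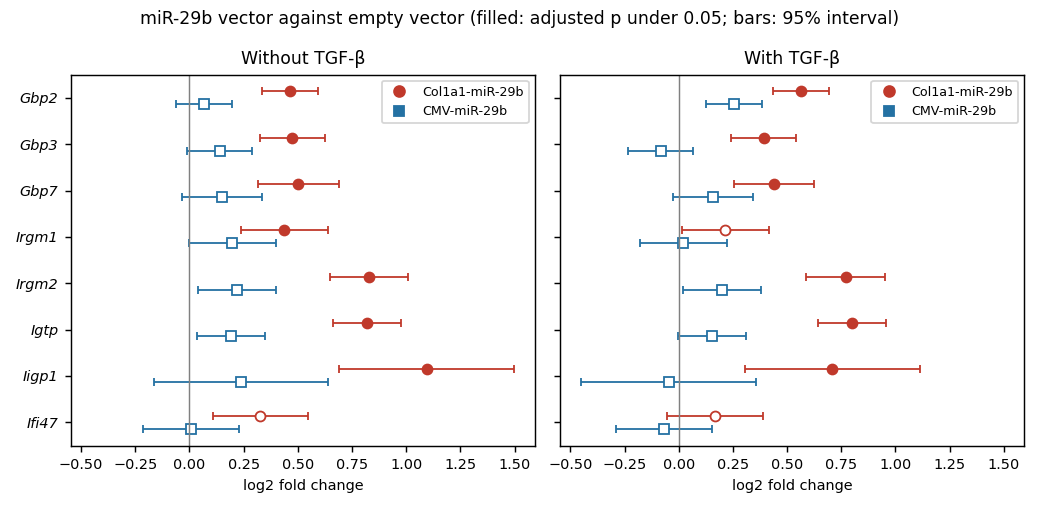
Log2 fold change of each GTPase in Col1a1-miR-29b cells (red circles) and CMV-miR-29b cells (blue squares) against empty vector cells, without TGF-β (left) and with it (right); whiskers are 95% intervals and filled symbols pass an adjusted p of 0.05. All 7 and 6 passing changes belong to Col1a1-miR-29b, and no CMV-miR-29b symbol is filled.

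CMV-miR-29b cells were the comparison with the other miR-29b plasmid. The precursor gene Mir29b-1 had 110 to 309 counts in CMV-miR-29b libraries without TGF-β, 203 to 293 in those with it, 0 to 1 in Col1a1-miR-29b libraries without TGF-β, 2 to 6 in Col1a1-miR-29b libraries with TGF-β and 0 in all empty vector libraries. These are reads of poly(A) RNA over the precursor, not of the mature microRNA. Whether the GTPase counts follow the level of miR-29b was not tested. None of the 8 genes passed against the empty vector by edgeR, without TGF-β, where 0.00473% of all genes passed, or with it, where 0.00945% passed. At an unadjusted threshold of 0.05 by edgeR, Igtp and Irgm2 passed without TGF-β and Gbp2 and Irgm2 with it, where 5.46% and 12.0% of all genes did. With DESeq2, 43 and 264 genes of the whole table passed, and of the 8 genes Gbp2 passed with TGF-β (log2 fold change 0.25, adjusted p = 0.019).

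Without TGF-β, Igtp had 9690, 9307 and 9594 in CMV-miR-29b cells, all above the empty vector libraries, and Irgm2 had 11094, 10149 and 9543, also above them. Their log2 fold changes were 0.19 (95% interval 0.04 to 0.35) and 0.22 (0.04 to 0.40). Both intervals lie below those of Col1a1-miR-29b, which ran from 0.66 to 0.98 and from 0.65 to 1.01. For Gbp2, with 4276, 4338 and 4211, the interval was -0.06 to 0.19. Iigp1 had 959, 698 and 746 and overlapped the empty vector libraries, with an interval of -0.16 to 0.64. With TGF-β, Igtp had 7972, 7333 and 8574 and Irgm2 had 8312, 8666 and 8629 in CMV-miR-29b cells, and both overlapped the empty vector libraries with TGF-β. Gbp2, with 3317, 3175 and 2956, did not overlap them, and its interval was 0.13 to 0.38. Over the 8 genes the median log2 fold change was 0.17 without TGF-β and 0.09 with it, and 2 and 1 of the 8 had every CMV-miR-29b library above every empty vector library, against 5.42% and 7.86% of all genes tested.

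The miR-29b vectors were then compared with each other, which tests the difference between these groups directly. The plasmids differ in promoter, in DNA mass and in precursor reads, and effects of these cannot be told apart here. In the absence of TGF-β, 5 of the 8 genes were lower in CMV-miR-29b than in Col1a1-miR-29b cells, where 1.81% of all genes passed and 0.803% passed as lower. The genes were Igtp (log2 fold change -0.63 ± 0.074, adjusted p = 0.00146, edgeR), Irgm2 (-0.61 ± 0.085, adjusted p = 0.00431), Gbp2 (-0.40 ± 0.061, adjusted p = 0.00568), Gbp3 (-0.33 ± 0.071, adjusted p = 0.0292) and Iigp1 (-0.86 ± 0.19, adjusted p = 0.0357, edgeR). With TGF-β, 4 were lower, where 1.93% of all genes passed and 0.912% passed as lower. They were Igtp (-0.64 ± 0.074, adjusted p = 0.00142, edgeR), Irgm2 (-0.57 ± 0.085, adjusted p = 0.00596), Gbp3 (-0.47 ± 0.071, adjusted p = 0.00596) and Gbp2 (-0.31 ± 0.061, adjusted p = 0.0242, edgeR). Both counts became 3 without the 2 libraries f. In each setting 7 of the 8 genes, all but Irgm1, had every CMV-miR-29b library below every Col1a1-miR-29b library, against 11.1% and 11.7% of all genes tested.

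The calls of Igtp held in both of these comparisons whichever library was left out, and so did those of Irgm2. Those of Iigp1 and Gbp3 without TGF-β were fragile. Iigp1 lost its call without any of the 6 libraries compared, with an adjusted p of 0.0597 to 0.111 (edgeR), and Gbp3 lost it without any of them except Col1a1-miR-29b library d, with 0.0538 to 0.117. With TGF-β, Gbp2 lost its call without any of the 3 Col1a1-miR-29b libraries and without CMV-miR-29b library d or e, with an adjusted p of 0.0621 to 0.113 (edgeR). Since the vector comparisons share their libraries, their calls are not independent of each other.

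The next question was how TGF-β changed the GTPases within each vector. Gbp2 and Gbp7 were lower with TGF-β under all 3 vectors, and none of the 8 passed as higher. In empty vector cells 2 of the 8 genes passed, both lower, where 5.88% of all genes passed and 2.01% passed as lower. In Col1a1-miR-29b cells 3 passed, Gbp2, Gbp7 and Iigp1, all lower, where 4.32% passed and 1.32% as lower. In CMV-miR-29b cells 3 passed, Gbp2, Gbp3 and Gbp7, all lower, where 4.95% passed and 1.87% as lower. The marker sums moved with TGF-β as well. In empty vector cells the fibroblast sum went to 503587 to 576372, the endothelial sum to 244 to 280, the epithelial sum to 128 to 227 and the leukocyte sum to 1733 to 1855. Under the other vectors, too, the fibroblast, endothelial and epithelial sums of all libraries with TGF-β were above those without it. The fibroblast sum holds collagen genes, whose production TGF-β drives, so its rise does not measure the share of fibroblasts. The part of these shifts in the TGF-β results was not tested. Every library with TGF-β was below every library without it for 3, 5 and 6 of the 8 genes under the 3 vectors, against 9.69%, 10.2% and 9.89% of all genes tested. Without the 2 libraries f, Gbp2 was the 1 gene that passed in Col1a1-miR-29b cells.

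Gbp2 fell under each vector, and its calls held in each of 17 fits. From the values above, its 3877 to 4215 in empty vector cells became 2450 to 2821 with TGF-β, its 5463 to 5944 in Col1a1-miR-29b cells became 3821 to 4037, and its 4211 to 4338 in CMV-miR-29b cells became 2956 to 3317. The groups did not overlap under any vector, and the libraries of Col1a1-miR-29b cells with TGF-β overlapped those of empty vector cells without it. The log2 fold changes were -0.63 ± 0.061 (adjusted p = 5.9e-06, edgeR), -0.53 ± 0.061 (adjusted p = 4.34e-05) and -0.44 ± 0.061 (adjusted p = 0.000269, edgeR). Gbp7 fell to 2815, 3293 and 2628 in empty vector cells, to 3701, 4373 and 3770 in Col1a1-miR-29b cells and to 3322, 3237 and 3176 in CMV-miR-29b cells. Its log2 fold changes of -0.36 ± 0.087 (adjusted p = 0.0215, edgeR), -0.42 ± 0.087 (adjusted p = 0.00896) and -0.35 ± 0.087 (adjusted p = 0.0263, edgeR) lay close together.

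The calls for Gbp7 were less secure. In empty vector cells the call was lost without library d or e, and without library c or e with TGF-β, with an adjusted p of 0.0631 to 0.108 (edgeR). In Col1a1-miR-29b cells it was lost without library c or library f with TGF-β (adjusted p = 0.0595 and 0.055). In CMV-miR-29b cells it was lost without library c or e or without any of the 3 libraries with TGF-β, with an adjusted p of 0.0524 to 0.125 (edgeR). The fall was present in every one of these fits.

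Gbp3 had 6674, 6575 and 6399 in empty vector cells with TGF-β and 6032, 6455 and 6066 in CMV-miR-29b cells with TGF-β. Against 8625, 7268 and 8410 without TGF-β, the fall in CMV-miR-29b cells was -0.39 ± 0.071 (adjusted p = 0.00301, edgeR), whereas the values in empty vector cells (-0.17 ± 0.071, adjusted p = 0.231) and in Col1a1-miR-29b cells (-0.25 ± 0.070, adjusted p = 0.0622, edgeR) did not pass. Gbp3 passed in Col1a1-miR-29b cells without library d (log2 fold change -0.30, adjusted p = 0.0385) or without library d with TGF-β (-0.32, adjusted p = 0.0221, edgeR). Iigp1 fell by 0.76 on the log2 scale in Col1a1-miR-29b cells (SE 0.19, adjusted p = 0.031, edgeR), a call that was lost without any of the 4 libraries c and f of both groups, with an adjusted p of 0.107 to 0.147. In CMV-miR-29b cells it went from 959, 698 and 746 to 490, 612 and 424, and did not pass (-0.65 ± 0.19, adjusted p = 0.063, edgeR), but did so without library d with TGF-β (-0.81, adjusted p = 0.0453).

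Igtp and Irgm2 were at lower means with TGF-β under each vector, by log2 values of -0.22 to -0.26 and -0.24 to -0.30, without passing. In empty vector cells both passed when library d with TGF-β, the highest of its group in both genes, was left out (-0.32, adjusted p = 0.012, and -0.36, adjusted p = 0.0101, edgeR), and so did Ifi47, in the other direction (0.34, adjusted p = 0.0358). Without that library 5 of the 8 genes passed in empty vector cells in place of 2. In CMV-miR-29b cells Igtp passed without library e with TGF-β (-0.32, adjusted p = 0.0388, edgeR). Irgm1 and Ifi47 were at higher means with TGF-β under each vector, by 0.26 and 0.23 on the log2 scale in empty vector cells and by less in the others, and did not pass (adjusted p = 0.143 and 0.28 in empty vector cells, edgeR).

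**Figure D4:**
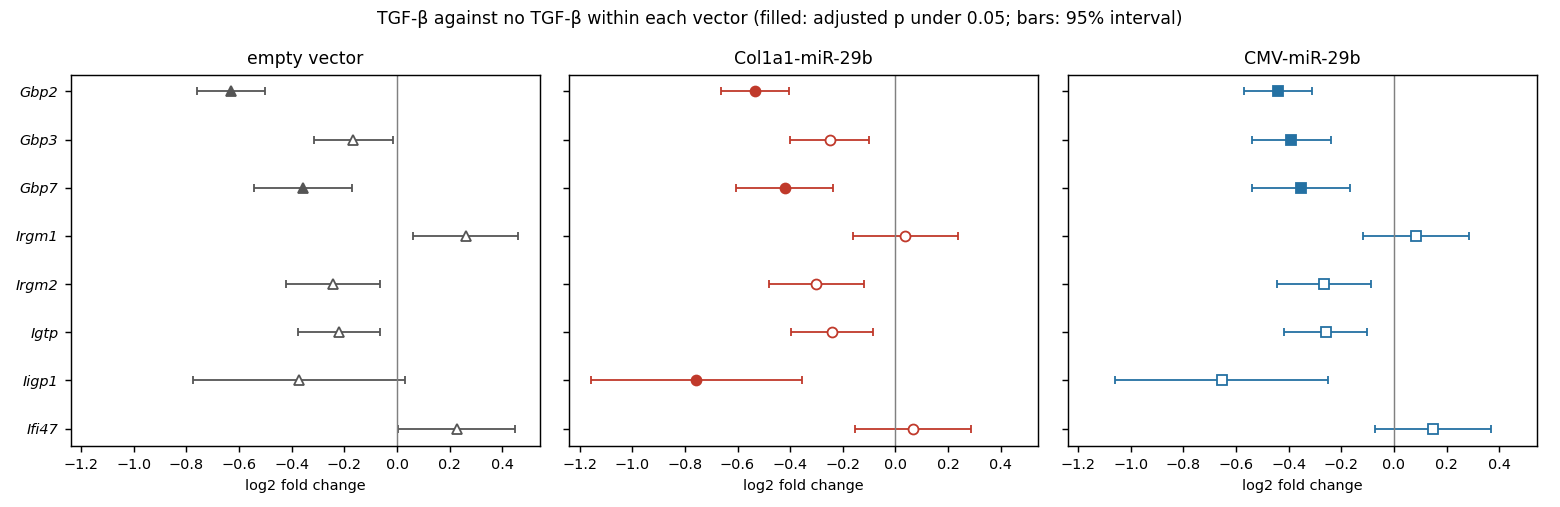
Log2 fold change of each GTPase with TGF-β against without it, in empty vector, Col1a1-miR-29b and CMV-miR-29b cells; whiskers are 95% intervals and filled symbols pass an adjusted p of 0.05. Gbp2 and Gbp7 are filled and below 0 in all 3 panels, and Irgm1 and Ifi47 are open and above 0 in all 3.

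Whether the response to TGF-β differed between vectors was tested as an interaction. None of the 8 genes passed by edgeR, for Col1a1-miR-29b or for CMV-miR-29b, and 0.0% of all genes did. At an unadjusted threshold of 0.05, none of the 8 passed for Col1a1-miR-29b and 2, Gbp2 and Gbp3, for CMV-miR-29b, where 4.54% and 5.34% of all genes did. With DESeq2, 27 and 19 genes of the whole table passed, none of them among the 8. The interval of the difference between Col1a1-miR-29b and empty vector cells was -0.08 to 0.28 for Gbp2 and -0.24 to 0.20 for Igtp, and -0.95 to 0.18 for Iigp1. For CMV-miR-29b it was 0.01 to 0.37 for Gbp2, whose fall was the smaller, and -0.44 to -0.01 for Gbp3, whose fall was the larger.

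Ordered by mean, the 6 groups fell into similar sequences for 6 of the genes. Col1a1-miR-29b cells without TGF-β were highest for Gbp2, Gbp3, Gbp7, Irgm2, Igtp and Iigp1, and were separated from the next group except in Gbp3. Second came Col1a1-miR-29b cells with TGF-β for Irgm2 (12691 ± 1126, SD, n = 3), Igtp (12447 ± 527), Iigp1 (859 ± 135) and Gbp3 (8591 ± 751), and CMV-miR-29b cells without TGF-β for Gbp2 (4275 ± 63.7) and Gbp7 (4145 ± 319). For Irgm2 and Igtp the first 4 groups did not overlap, down to empty vector cells without TGF-β (8807 ± 426 and 8335 ± 330), and below these neighbours overlapped. For Gbp2 the second to the fourth group overlapped in turn and the last 2 stood apart, and for Iigp1 all groups below the first overlapped in turn. For Gbp3 the first 4 groups overlapped from neighbour to neighbour, and for Gbp7 only the first group and the step from empty vector cells to CMV-miR-29b cells with TGF-β stood apart. The lowest groups were empty vector cells with TGF-β for Gbp2, Gbp7, Irgm2 and Igtp and CMV-miR-29b cells with TGF-β for Gbp3 and Iigp1. Irgm1 and Ifi47 were highest in Col1a1-miR-29b cells with TGF-β (17409 ± 636 and 1299 ± 24.2) and lowest in empty vector cells without it (12519 ± 735 and 988 ± 40.3), and each of their groups overlapped the next.

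Of 10 interferon ligand genes, Ifng had 0 counts in every library, which allows up to 3 counts per library, and Ifnb1, the type I interferon that fibroblasts make, passed the filter with 0 to 18 counts and was not called in any comparison. In the absence of TGF-β it had 4 to 13 counts in empty vector cells, 7 to 15 in Col1a1-miR-29b cells and 0 to 8 in CMV-miR-29b cells, and in its presence 0 to 6, 6 to 18 and 4 to 17. None of the 7 receptor and kinase genes, Ifngr1, Ifngr2, Ifnar1, Ifnar2, Jak1, Jak2 and Tyk2, passed in any comparison. The share of all genes tested that passed ran from 0.0% to 12.9% by comparison, and with so few genes nothing is read from this absence. The median log2 fold change of the 7 in Col1a1-miR-29b cells was -0.05 without TGF-β and -0.01 with it. Interferon protein was not measured.

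Of the 12 transcription factor genes, 2 were higher in Col1a1-miR-29b than in empty vector cells in either setting, where 2.57% and 5.31% of all genes passed as higher, and with so few genes nothing is read from this count. They were Irf7, which amplifies type I interferon responses (0.41 ± 0.065 without TGF-β, adjusted p = 0.00352, and 0.48 ± 0.065 with it, adjusted p = 0.000582, edgeR), and Stat2, a partner of Irf9 (0.28 ± 0.077 without TGF-β, adjusted p = 0.0406, and 0.28 ± 0.077 with it, adjusted p = 0.0242, edgeR). Irf1 gave 0.09 and 0.44, and Irf9 -0.17 and -0.29, none of which passed. Among 8 feedback inhibitors, Usp18, which removes Isg15 and dampens the type I receptor, was higher by 0.71 ± 0.066 without TGF-β (adjusted p = 0.000117, edgeR) and 0.66 ± 0.066 with it, Socs3 was higher by 0.39 and 0.43, and Ptpn2, a phosphatase of the pathway, was lower by -0.26 and -0.25. Socs1, the inhibitor of Jak kinases, gave 0.59 and 0.53 and did not pass (adjusted p = 0.0584 and 0.0587, edgeR).

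Many of the other interferon-inducible GTPases were also higher in Col1a1-miR-29b cells. Of the 19 that passed the filter, 11 were higher and none lower under Col1a1-miR-29b without TGF-β (median log2 fold change 0.48), and 10 were higher and none lower with it (median 0.69). Over all genes tested, 2.57% and 5.31% passed as higher. Gbp2b, Gbp6 and Gbp9, further guanylate-binding proteins, passed in both settings, at 0.51, 0.48 and 0.70 in the absence of TGF-β and at 0.61, 0.94 and 0.69 in its presence. Mx1, an antiviral GTPase against influenza viruses, gave 1.01 and 1.0, Mx2 0.44 and 0.42, Tgtp1 0.85 and 0.70 and Gm4951 1.11 and 1.11, again all past the threshold. Tgtp2 (0.76), Gm12250 (1.26) and Irgq (0.30) passed without TGF-β and not with it, and Gbp4 (0.77) and Gbp10 (1.37) passed with it and not without, but no interaction was called for any of them. F830016B08Rik had the largest change, 2.27 without TGF-β and 1.37 with it, at 19 to 42 counts in empty vector cells and 83 to 163 in Col1a1-miR-29b cells. Gbp5, Gbp8, Gvin1, Gm5431, 9930111J21Rik1 and 9930111J21Rik2 did not pass in either setting. In CMV-miR-29b cells none of the 19 passed, with medians of 0.09 and 0.06. Over all genes tested, 0.00473% and 0.00945% passed there, so nothing is read from the absence of calls.

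With TGF-β, these other GTPases were called in both directions. In empty vector cells 5 of the 19 were lower, Gbp2b, Gbp4, Gbp5, Gbp6 and Gbp9, and 3 were higher, Tgtp2, 9930111J21Rik1 and 9930111J21Rik2. All 5 that fell are guanylate-binding proteins, by log2 values from -0.48 for Gbp9 to -1.14 for Gbp5, and the 3 that rose belong with the immunity-related GTPases, by 0.64, 1.32 and 1.25. The immunity-related GTPases did not all move up. In the same cells Igtp, Irgm2 and Iigp1 gave -0.22, -0.24 and -0.37, and Irgm1 and Ifi47 0.26 and 0.23, without passing. In Col1a1-miR-29b cells Gbp2b and Gbp9 were lower and the 2 genes 9930111J21Rik1 and 9930111J21Rik2 higher. In CMV-miR-29b cells Gbp2b, Gbp5, Gbp6, Gbp9, Gm12250, Gvin1 and Mx1 were lower and the same 2 genes higher. Over all genes tested, 5.88%, 4.32% and 4.95% passed under empty vector, Col1a1-miR-29b and CMV-miR-29b, and 2.01%, 1.32% and 1.87% passed as lower. Members of tandem clusters such as Tgtp1 and Tgtp2 or 9930111J21Rik1 and 9930111J21Rik2 are near copies, so how reads were divided within each pair is uncertain.

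Of the 27 other interferon targets tested, 11 were higher and 1, Nos2, the inducible nitric oxide synthase, was lower in Col1a1-miR-29b cells in the absence of TGF-β, and 12 were higher and again Nos2 lower with it, with medians of 0.27 and 0.30. Over all genes tested, 6.27% and 12.9% passed, and 2.57% and 5.31% passed as higher. The largest were Cxcl10, a chemokine for T cells (0.73 ± 0.049 and 0.84 ± 0.049, adjusted p = 4.75e-06 and 6.34e-07, edgeR), Ifit1, which binds viral RNA (0.74 and 0.75), and Cd274, the checkpoint ligand PD-L1 (0.49 and 0.76). In CMV-miR-29b cells none passed against the empty vector, with a median of 0.11 in the absence of TGF-β and of 0.0026 in its presence. There, 0.00473% and 0.00945% of all genes tested passed. Compared directly, Cxcl10 was lower in CMV-miR-29b than in Col1a1-miR-29b cells (log2 fold change -0.70 ± 0.049 in the absence of TGF-β, adjusted p = 7.54e-06, edgeR). Of the 12 partners of the GTPases in autophagy and inflammasome activation, none passed without TGF-β, and 2, Gabarapl2 and Map1lc3b, were higher with it, by 0.25 each, where 12.9% of all genes passed and 5.31% as higher, so that nothing is read from this count.

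**Figure D5:**
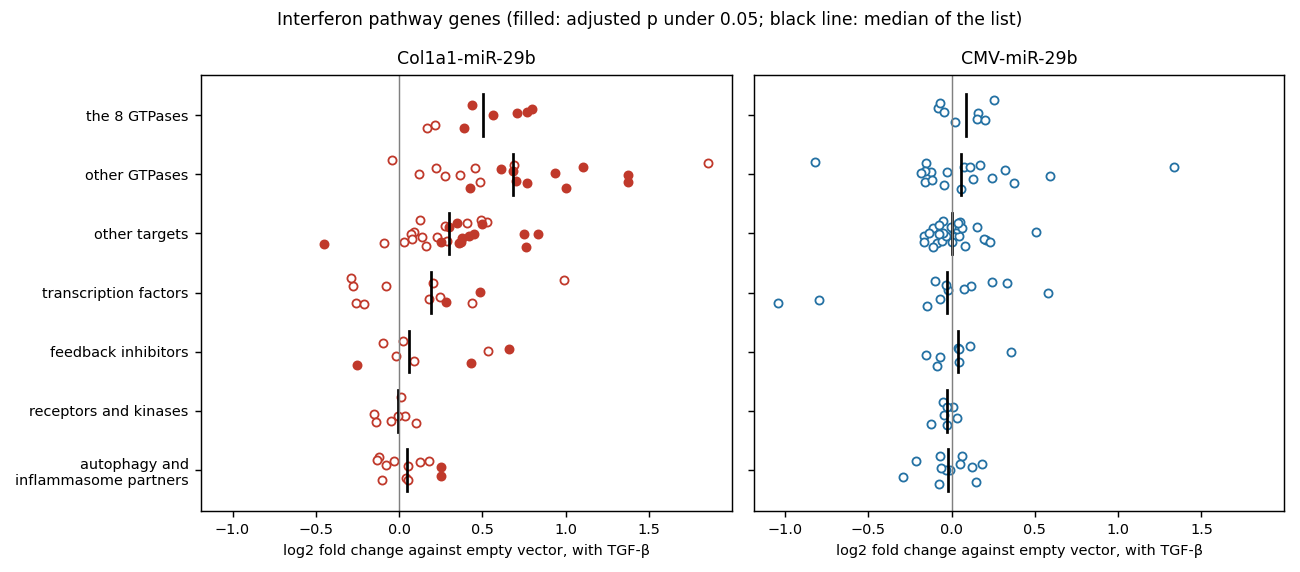
Log2 fold change with TGF-β of the genes of each interferon pathway list in Col1a1-miR-29b (left) and CMV-miR-29b cells (right) against empty vector cells; each point is a gene, filled where the adjusted p is under 0.05, and black lines are medians. In Col1a1-miR-29b cells the medians of the 8 GTPases and the other GTPases lie at 0.50 and 0.69, and that of the receptors and kinases at -0.01. No CMV-miR-29b point is filled, where 0.00945% of all genes tested passed.

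The 8 genes did not all vary together. Over the 18 libraries, which share treatments within a group, the Pearson correlation of log2 CPM between pairs of members had a median of 0.83 and ran from 0.03, between Gbp2 and Ifi47, to 0.98, between Igtp and Irgm2. All pairs with Irgm1 or Ifi47 were at 0.69 or below, and all pairs among the other 6 genes were at 0.82 or above. After each group's mean was removed, the median was 0.17, with a range of -0.69 to 0.78. The genes of the whole table whose log2 CPM most resembled the mean standardized level of the 8, among 13904 genes compared over 18 libraries, were Ifit1 (r = 0.98), Sp100, a nuclear body protein (0.97), Ifi35 (0.96), Cxcl10 (0.95) and Gm4951 (0.95).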

How the data were processed

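Poly(A) RNA of 18 libraries was sequenced in paired ends on an Illumina system. Reads were trimmed with cutadapt, checked with FastQC, mapped with HISAT2 and assembled with StringTie by the authors. Their methods name Ensembl release 96 and the submitters' processing notes name mm9, but 52506 of the 55450 genes have coordinates identical to GENCODE M21 on GRCm38, which is used here. The authors deposited whole-number counts per gene without normalization, and the step from assemblies to counts is not stated. The authors also deposited FPKM values, in which 0.0001 stands for 0. Of counts from 1 to 40, 33.8% to 36.7% per library were multiples of 4, where chance gives 25%. The counts may therefore carry error beyond counting error, and the source of the excess was not tested.

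Column names assigned 16 libraries to samples. In each Col1a1-miR-29b arm 1 more column carries the letter f, where the remaining title of the arm has e, so its name fixes the group and not the sample: its counts were used as a library of the group and its FPKM was not, so 2 columns of values per sample stayed unused. The paper states 3 repeated experiments per group. Same-letter libraries did not deviate together: over 11216 genes the mean correlation of their deviations from group means was 0.015 in 36 pairs, against -0.0081 in 70 pairs of different letters, so no pairing was used.

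Counts were tested with edgeR 4.0.16 in R 4.3.3: filterByExpr, TMM normalization, 1 mean for each of the 6 groups over all libraries, and the quasi-likelihood F test, adjusted by Benjamini-Hochberg at 0.05. Standard errors came from the F statistic and 95% intervals from its degrees of freedom. The script was tested on simulated data. Alternatives were DESeq2 1.42.0, its size factors, scaling by total counts, a filter of at least 1 count, the groups alone, a replicate block (without the 2 libraries f), leaving out each library and limma 3.58.1 on log2(FPKM + 1) and log2(FPKM + 0.1). Fits without the 2 libraries f and with counts divided by 4 were chosen after seeing the data.

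The 8 genes, the gene lists and the markers were chosen with earlier results of these data known. Named were the 8 genes, all other listed GTPases, the core receptors and factors, up to 3 genes with the largest change per other list among those called, and the 5 genes most like the 8 at a mean CPM of at least 1. Nos2, Tyk2 and the overlapping or marker genes were named outside this rule, after their values were seen. Some listed genes are not reported here. A floor of 3 counts was used for undetected genes and covers counting error only.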

Additional observations from a re-analysis of the deposited data

How the results depend on the processing

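Of the changes of single GTPases, 1025 values under the alternatives kept their direction and their side of the threshold, 87 no longer passed, 27 newly passed and 13 changed sign. The rise of Gbp2, Gbp3, Irgm2 and Igtp in Col1a1-miR-29b cells, with and without TGF-β, and the fall of Gbp2 with TGF-β under each vector passed in all 17 fits. For TGF-β in empty vector cells, the 2 genes called became 1 with the groups alone and 1 with the replicate block, and 1 to 5 when a library was left out. For TGF-β under Col1a1-miR-29b, 3 became 6 with DESeq2, 5 with scaling by total counts, 5 with counts divided by 4, and 1 with the replicate block, without the 2 libraries f and with limma on either FPKM scale, and 1 to 4 when a library was left out. For TGF-β in CMV-miR-29b cells, 3 became 5 with DESeq2 and 5 with counts divided by 4. For Col1a1-miR-29b against empty vector without TGF-β, 7 became 4 with the replicate block and 4 with limma on log2(FPKM + 0.1). For CMV-miR-29b against empty vector with TGF-β, 0 became 1 with DESeq2. For CMV-miR-29b against Col1a1-miR-29b without TGF-β, 5 became 3 with a filter of at least 1 count, without the 2 libraries f and with limma on log2(FPKM + 1), 2 with the groups alone, the replicate block and limma on log2(FPKM + 0.1), and 3 to 4 when a library was left out. With TGF-β, 4 became 2 with the groups alone and 1 with the replicate block. Fewer libraries were fitted without the libraries f, with FPKM, with the groups alone, with the replicate block and when a library was left out. The cause of the moves was not tested.

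Every change of sign was of a value that had not passed. Under Col1a1-miR-29b, Irgm1 with TGF-β became -0.0027 with limma on log2(FPKM + 1), -0.0026 on log2(FPKM + 0.1) and -0.0078 without Col1a1-miR-29b library d, and in CMV-miR-29b cells it ran from -0.0072 (without library d; -0.0071 without library e with TGF-β) to 0.17 when a library was left out. Against the empty vector, CMV-miR-29b gave for Ifi47 -0.03 without empty vector library d, and -0.086 (without CMV-miR-29b library e) to 0.060 when a library was left out, and with TGF-β -0.19 to 0.016, the latter without empty vector library c. With TGF-β it gave for Irgm1 -0.035, -0.0019 and -0.066 without empty vector libraries c or d or CMV-miR-29b library e, in a range of -0.066 to 0.094, and for Iigp1 0.11 and 0.067 without empty vector library d or CMV-miR-29b library e, in a range of -0.20 to 0.11.

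The same letter of the libraries was used only as a hint of pairing, and the check above gave none. Over all genes, the replicate block moved the calls for Col1a1-miR-29b against empty vector without TGF-β from 1327 to 161, in a fit of the 16 other libraries, against 397 for those libraries with no block. Scaling by total counts moved the split of all genes called in that comparison from 543 higher and 784 lower to 679 and 643, and with TGF-β from 1123 and 1615 to 1469 and 1323, for CMV-miR-29b against Col1a1-miR-29b without TGF-β from 212 and 170 to 145 and 188, and for TGF-β in empty vector cells from 820 and 425 to 672 and 593. Over all genes, the calls for CMV-miR-29b against Col1a1-miR-29b moved from 382 without TGF-β and 408 with it to 1179 and 1091 with DESeq2, 18 and 48 with the groups alone and 79 and 39 without the libraries f. Those for Col1a1-miR-29b against empty vector with TGF-β moved from 2738 to 1072 with the groups alone, and those for TGF-β in the 3 vectors from 1245, 914 and 1047 to 618, 719 and 527. With 3 libraries per group and SEs of 0.061 to 0.19 on the log2 scale, small differences were not detectable.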
